A study of Homo sapiens with 12 samples.

Results

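Short exons of 28 to 50 nt were followed in a comparison of PC3E and GS689.Li (GS689 below), 2 human cell lines that both descend from PC3, an established prostate cancer line. The members were chosen by exon length alone. They numbered 6054 of 114816 exon events in the RNA-seq table and 234 of 2023 in the RASL-seq table, of which 228 stood in both. An event is an exon with a given upstream and downstream splice site, so an exon can enter more than 1 event; the 6060 events held 3799 distinct exons. On the short side of the limit, 203 RNA-seq events had 27 nt and 80 had 28 nt, and on the long side 356 had 50 nt and 544 had 51 nt.

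PC3E has epithelial and GS689 mesenchymal character. Both are labelled wild type and were grown in DMEM/F12 medium with FBS, NEAA and G418, plated in 10 cm dishes and harvested after a night. There was 1 line per character, with 3 RASL-seq and 3 RNA-seq libraries each, and the labels do not say whether these came from separate cultures, so the p-values measure a spread that may be technical. In RASL-seq, probe pairs that meet on a splice junction are ligated and sequenced. The inclusion level is the share of counts from the form that holds the exon; in RASL-seq the including form is counted at the junction upstream of the exon. The RNA-seq header numbers its libraries as set 1 and set 2 and names no line, so all tests between the lines came from RASL-seq and RNA-seq values are given by set without a test.

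RASL-seq libraries held 615758 to 954120 counts, 9.31% to 10.6% of them in short exon events. PC3E replicate 2 stood apart from the other 2 PC3E libraries (a chi-square of 6.72 and 4.67 per degree of freedom over inclusion shares, against 1.8 to 2.37 for the 4 other pairs within a line). The labelled character matched the measured markers: VIM stood at 172 to 210 CPM in PC3E and 4188 to 4287 CPM in GS689, ZEB1 at 0 to 1.18 and 9.74 to 27.3, and LSR, OCLN, SPINT2 and LLGL2 were lower in every GS689 library than in every PC3E library. CDH1, ESRP1, ESRP2 and EPCAM had 0 events in the RASL-seq table. In RNA-seq the sets also differed in several of these markers. Summed event counts of ESRP1 were 30769 to 41757 in set 1 and 14 to 94 in set 2. Those of EPCAM were 41308 to 45611 and 753 to 999, and those of CDH1 9963 to 13580 and 56 to 133. VIM had 5444 to 7787 and 126632 to 139659, and CDH2 4342 to 6619 and 9325 to 13828. FN1, of the same mesenchymal list, did not follow VIM, with 46769 to 68791 in set 1 and 23738 to 48109 in set 2. The sets were not assigned to lines from these values, because group membership was taken from labels and headers alone. Of 6 genes of other cell types (PTPRC, CD3E, ALB, CHGA, SYP and KLK3), 0 had an event in the RASL-seq table. In RNA-seq PTPRC had 2 events, with summed counts of 0 to 14 per library, and the others had 0.

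Short exons are recognised by the splicing machinery with little room between their splice sites for both to be bound at once, and many depend on enhancers in the exon or the flanking introns and on regulators such as RBFOX, PTBP, QKI and ESRP proteins. Exons whose length is a multiple of 3 add or remove a few amino acids without changing the reading frame downstream. Other lengths shift the frame and often bring in an early stop codon. Alternative short exons are known in genes of the cytoskeleton, of membrane traffic and of signalling, where they often change a loop or a binding surface of the protein.

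The exons below are coding ones among those that changed between the lines and show how little sequence such an exon carries. The letters are from GENCODE release 29 transcripts matched by structure, and positions are given on hg19 as in the deposited tables. All lie on the plus strand and are read 5′ to 3′. The capitals mark the last 3 bases, which lie where U1 RNA can pair at the 5′ splice site. The usual ending of a human exon is AG. It was present in 4 of these 9 exons, and in 4 of 10 with the URI1 exon, which ends in TTG. Among the 4239 measured short exon events matched to a gene it was present in 53.9%, and among all 86477 such exon events in 55.4%. No sequence is printed for TACC1, MET and URI1.
UTRN, 39 nt, chr6:145148484-145148522: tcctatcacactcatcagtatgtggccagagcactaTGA
YAP1, 48 nt, chr11:102080248-102080295: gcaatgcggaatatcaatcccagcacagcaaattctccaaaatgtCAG
KIF23, 42 nt, chr15:69717621-69717662: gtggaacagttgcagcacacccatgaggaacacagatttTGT
ITPR1, 45 nt, chr3:4695526-4695570: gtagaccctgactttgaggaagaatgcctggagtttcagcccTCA
UAP1, 48 nt, chr1:162562525-162562572: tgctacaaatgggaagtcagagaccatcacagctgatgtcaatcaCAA
EPB41L1, 36 nt, chr20:34783251-34783286: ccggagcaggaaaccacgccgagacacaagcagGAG
EPB41, 42 nt, chr1:29385323-29385364: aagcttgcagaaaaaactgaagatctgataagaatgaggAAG
GRAMD2B, 43 nt, chr5:125801986-125802028: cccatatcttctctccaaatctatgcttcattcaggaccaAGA
TBC1D13, 41 nt, chr9:131553014-131553054: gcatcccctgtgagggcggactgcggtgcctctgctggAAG

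The comparison of the lines asked which short exons differ in splicing when a line of epithelial character is set against one of mesenchymal character. Inclusion of short exons in UTRN, YAP1, TACC1, ITPR1, KIF23 and UAP1 fell in GS689, and inclusion of short exons in TBC1D13, EPB41L1, URI1, EPB41, GRAMD2B and MET rose. These 12 were the calls among 130 short exon events tested (9.23%), against 5.87% of all 1124 exon events tested. By direction, 6 short exons rose (background 2.22%) and 6 fell (background 3.65%). A call needed an adjusted p under 0.05 in a quasi-binomial model with dispersions moderated by limma and line means at least 5 percentage points apart; 42 short exons had an unadjusted p under 0.05. With limma applied to the log2 ratio of inclusion to skipping, 7 of the 130 were called (background 2.49%), all of them among the 12. Without PC3E replicate 2 the count was 19.

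The median difference (GS689 minus PC3E) over the 130 events was 0.02 percentage points and the median size of the difference 2.4, against -0.1 and 2.14 over all tested events. The libraries of the lines did not overlap for 45 of the 130 (34.6%), against a background of 23.6%. Where inclusion pooled over all libraries was 10% to 90%, 10 of 74 short exons were called (13.5%) and 56 of 557 exons of any length (10.1%). The calls by length were 3 of 17 at 3 to 27 nt, 29 of 435 at 51 to 100 nt and 22 of 542 above 100 nt. These shares were not tested against each other.

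Of the 234 RASL-seq events, 45 had a mean under 10 counts per library and 59 had fewer than 10 counts of the rarer form; these 104 were not tested. Pooled inclusion was above 90% in 62 of the 234 and below 10% in 72. The tested 130 held 126 distinct exons in 114 named genes, with a median of 174 counts per library (range 12.2 to 7764). The median SD between libraries of a line was 2.67 percentage points in PC3E and 1.94 in GS689.

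**Figure D1:**
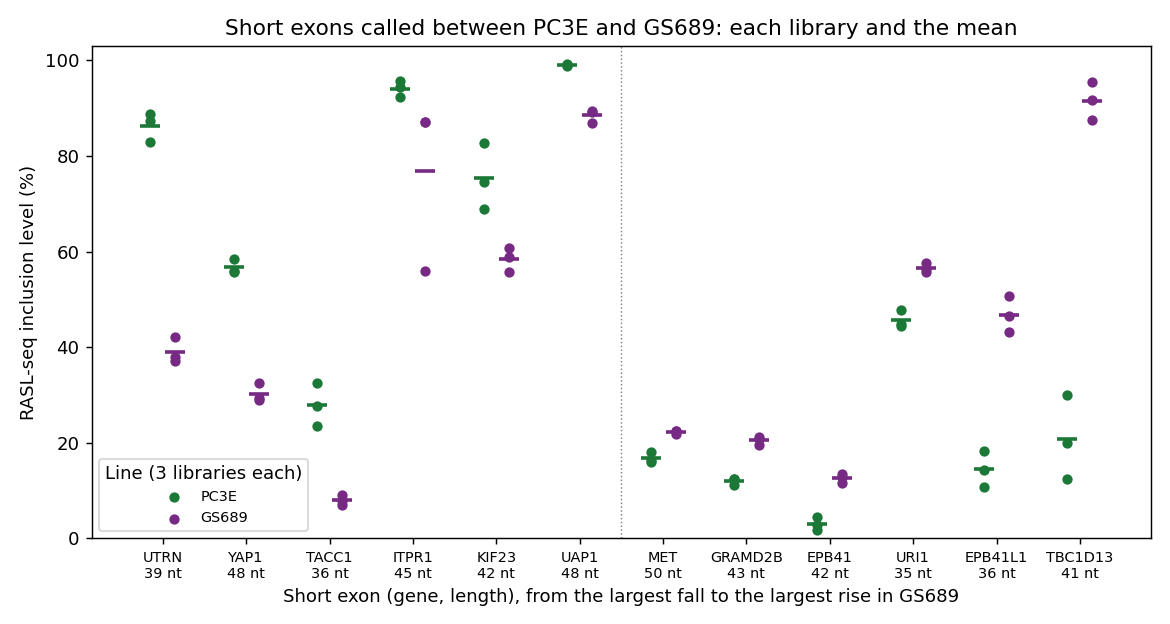
RASL-seq inclusion level (%) of the 12 called short exons, with a point for each of 3 libraries and a bar for the mean of each line. In every one of the 12 the PC3E points (green) and the GS689 points (purple) do not overlap; for ITPR1 the single GS689 point at 55.9% lies far below the other 2.

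Cytoskeletal and membrane skeleton genes held the exon with the largest fall and 2 of the rises. UTRN encodes utrophin, which links actin filaments to the dystroglycan complex at the membrane. Its 39 nt exon was included in 82.9%, 88.8% and 87.3% of counts in PC3E replicates 1 to 3 and in 37.8%, 37.2% and 42% in GS689 replicates 1 to 3. All GS689 libraries were thus below the lowest PC3E library by over 40 points, and the difference was -47.3 points (SE 2.34; adjusted p = 2.05e-08; 1.56e-09 to 0.006 over all alternatives). The depth was 518 counts per library for PC3E and 727 for GS689.

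EPB41L1 and EPB41 encode proteins 4.1N and 4.1R, which tie spectrin and actin to membrane proteins. The 36 nt EPB41L1 exon stood at 18.3%, 10.8% and 14.4% in PC3E and 43.2%, 50.6% and 46.6% in GS689, a rise of 32.3 points (SE 3.06; adjusted p = 4.2e-05, and 0.0601 without the filter on low counts; 1.78e-05 to 0.0601 over all alternatives). The 42 nt EPB41 exon was rare in both lines, at 2.73%, 1.67% and 4.4% in PC3E and 13.5%, 11.5% and 12.8% in GS689. Its rise of 9.67 points (SE 0.977) had an adjusted p of 0.00707, and 0.0585 without GS689 replicate 1 (0.00569 to 0.188 over all alternatives). The exons of both paralogues were thus higher in each GS689 library than in any PC3E library, while that of UTRN was lower.

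Of 13 short exon events measured in the list of cytoskeleton and membrane skeleton genes, 10 were tested and 3 called, the 3 given above. The median difference over the 10 was 8.27 points. Over all tested exon events 5.87% were called and the median difference was -0.1 points. AFDN, the junction scaffold afadin, had a 45 nt exon in 2 events, 1 without an inclusion count in any library and 1 at 1.23%, 0% and 1.3% in PC3E and 2.47%, 15% and 17.1% in GS689, with an adjusted p of 0.0784. MYO9B, an unconventional myosin, had a 48 nt exon at 61.8%, 78.8% and 69.2% in PC3E and 87.2%, 91.7% and 94.4% in GS689. The GS689 libraries lay above all PC3E libraries for both exons, yet neither passed; for MYO9B the adjusted p was 0.0755, and 0.0298 without PC3E replicate 2 (0.0298 to 0.435 over all alternatives). MYO6, a minus-end-directed myosin, had a 39 nt exon at 81.2% ± 8.01 in PC3E and 88.1% ± 10.9 in GS689 (SD, n = 3), and ANK2, ankyrin B, a 33 nt exon at 32.5% ± 7.96 and 49.2% ± 13.8.

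Genes of microtubules held 2 of the falls. KIF23 encodes a kinesin of the centralspindlin complex, which builds the midzone in dividing cells. Its 42 nt exon stood at 68.9%, 82.7% and 74.5% in PC3E and 55.7%, 58.8% and 60.7% in GS689. The lines did not overlap, with a difference of -17.0 points (SE 4.27; adjusted p = 0.00946, and 0.0723 without GS689 replicate 1; 0.00109 to 0.329 over all alternatives). PC3E replicate 2 was the highest library.

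TACC1 encodes a coiled-coil protein of centrosomes and microtubule ends. Its 36 nt exon stood at 27.6%, 23.4% and 32.6% in PC3E and 7.87%, 9.14% and 7% in GS689, a difference of -19.9 points (SE 2.73; adjusted p = 1.76e-05, and 0.0822 without the filter on low counts; 1.01e-07 to 0.0822 over all alternatives). The exon was a minor form in both lines and rarer in all GS689 libraries. In the list of microtubule and kinesin genes 7 events were measured, 6 tested and 2 called, both falls (background 5.87%). Among the other members, 45 nt exons of the paralogous polarity kinases MARK2 and MARK3 stood at 12.6% ± 6.7 and 20.9% ± 2.62 in PC3E and 15.1% ± 14.4 and 22.5% ± 2.26 in GS689 (SD, n = 3), with adjusted p of 0.859 and 0.817. For MARK3 the difference was 1.61 points (SE 2.0).

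YAP1 is the coactivator that the Hippo kinases keep out of the nucleus, and its 48 nt exon encodes an insert in the leucine zipper region of the activation domain. The exon stood at 56%, 55.7% and 58.5% in PC3E and 28.9%, 32.4% and 29.3% in GS689. The spread within each line was under 4 points and the difference was -26.5 (SE 1.43). With 60.7 and 53.7 counts per library the adjusted p was 0.00707, and 0.0563 without GS689 replicate 1 (0.00707 to 0.217 over all alternatives). It was the only short exon of the Hippo list in RASL-seq.

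Enzymes, receptors and channels made up a further group. UAP1 makes UDP-N-acetylglucosamine, the sugar donor for glycosylation. Its 48 nt exon was nearly always included in PC3E (99.1%, 99.1% and 98.8%) and less so in GS689 (89.5%, 89.2% and 87%), a difference of -10.5 points (SE 0.803; adjusted p = 0.00213, and 0.137 without the filter on low counts; 0.00127 to 0.137 over all alternatives). ITPR1, the type 1 receptor for inositol trisphosphate, releases calcium from the endoplasmic reticulum. Its 45 nt exon stood at 95.7%, 94.4% and 92.3% in PC3E and 87.2%, 87.1% and 55.9% in GS689.

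The ITPR1 difference of -17.4 points (SE 10.4; adjusted p = 0.0427) rested largely on GS689 replicate 3. It was -7.0 without that library (adjusted p = 0.489), and the call was also lost without PC3E replicate 1 (0.0868) or 3 (0.123); over all alternatives the adjusted p ran from 0.00921 to 0.518. MET encodes the receptor of hepatocyte growth factor. Its 50 nt partly coding exon (chromosome 7, 116335804 to 116335853) stood at 16%, 16.3% and 18.1% in PC3E and 22.4%, 22.4% and 21.8% in GS689, from 1650 to 3434 counts per library. The rise of 5.4 points (SE 0.683; adjusted p = 0.00302) was just over the minimum of 5, and fell just under it (4.997) without PC3E replicate 1.

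TBC1D13, a GTPase-activating protein for Rab proteins in membrane traffic, showed the largest rise on the fewest counts. Its 41 nt exon had 1 of 8, 3 of 10 and 1 of 5 counts included in PC3E and 21 of 22, 11 of 12 and 14 of 16 in GS689. Inclusion was 12.5%, 30% and 20% against 95.5%, 91.7% and 87.5%, a difference of 70.7 points (SE 5.57; adjusted p = 0.00213, and 0.137 without the filter on low counts; 0.00166 to 0.137 over all alternatives). The lowest GS689 library was far above the highest PC3E library. The list of vesicle traffic and endocytosis genes had 10 short exon events, of which 8 were tested and TBC1D13 alone was called (background 5.87%).

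DNM1L, the dynamin that divides mitochondria, and OSBPL9, a lipid transfer protein, belong to the same list and did not pass. The 33 nt DNM1L exon stood at 45.3%, 67.3% and 46.3% in PC3E and 35.9%, 36.2% and 33% in GS689 (adjusted p = 0.0993, and 0.0237 without PC3E replicate 2, where the difference was -10.8 points; 0.022 to 0.585 over all alternatives). PC3E replicate 2 was the library farthest from GS689. A 39 nt DNM1L exon elsewhere in the gene was at or below 2.89% in every library (adjusted p = 0.705). The 39 nt OSBPL9 exon stood at 91.2% ± 0.832 and 80.3% ± 5.95 (SD, n = 3; adjusted p = 0.0607).

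URI1, a prefoldin-like protein that binds RNA polymerase subunit RPB5, and GRAMD2B, a protein with a lipid-binding GRAM domain, carried frame-shifting exons that rose. The 35 nt URI1 exon stood at 47.8%, 44.4% and 44.8% in PC3E and 57.7%, 56.4% and 55.7% in GS689, from 1222 to 2382 counts per library. The 43 nt GRAMD2B exon stood at 12.4%, 11.2% and 12.5% in PC3E and 21.3%, 20.7% and 19.6% in GS689. Both rises, 10.9 points (SE 1.22) and 8.49 points (SE 0.659), exceeded the spread within each line several times over, with adjusted p of 0.000508 and 0.00314. With limma on the log2 ratio both lost their call (0.174 and 0.112), as did ITPR1, KIF23 and MET (0.206, 0.157 and 0.312); over all alternatives the adjusted p of URI1 ran from 0.000192 to 0.174, that of GRAMD2B from 0.0021 to 0.13 and that of MET from 0.000703 to 0.312.

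**Figure D2:**
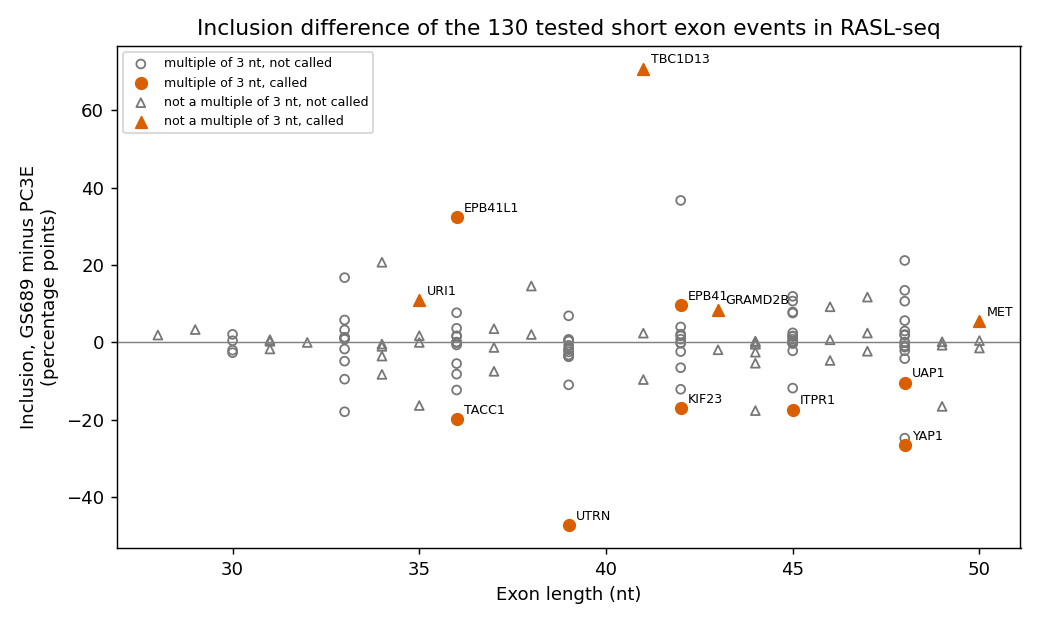
Difference of mean RASL-seq inclusion (GS689 minus PC3E, percentage points) against exon length (nt) for the 130 tested short exon events; circles are lengths that are multiples of 3, triangles other lengths, and filled symbols the 12 calls. The 6 called falls are all circles; of the 6 called rises 2 are circles and 4 are triangles.

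Reading frame was not used by the length rule. All 6 exons that fell had lengths that are multiples of 3, and of the 6 that rose this held for EPB41L1 and EPB41. Over the tested short exons 86 of 130 (66.2%) were multiples of 3, against 57.1% of all tested exon events. Calls were as frequent in both kinds, 8 of 86 (9.3%) and 4 of 44 (9.09%). Of 109 tested short exons in coding sequence 11 were called, of 5 partly coding ones 1, and of 9 noncoding ones 0 in the limma-moderated model, where 0 of the 9 also had an unadjusted p under 0.05.

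Splicing regulators had 7 short exon events measured and 6 tested. In the limma-moderated model 0 were called, and 4 had an unadjusted p under 0.05. PTBP2 is the neuronal paralogue of the polypyrimidine tract protein PTBP1; skipping of its 34 nt exon is known to send the transcript to nonsense-mediated decay. The exon stood at 61.8%, 37.3% and 55.1% in PC3E and 71.3%, 69.6% and 75.5% in GS689. All GS689 libraries were above all PC3E libraries, but with the PC3E spread the adjusted p was 0.0564 (0.0337 without PC3E replicate 1; 0.0237 to 0.521 over all alternatives). MBNL1 and MBNL2 each have a 36 nt exon. That of MBNL1 stood at 97.9% ± 0.563 in PC3E and 99.6% ± 0.48 in GS689 (SD, n = 3; adjusted p = 0.119). That of MBNL2 was counted in 2 events with different downstream sites, at 56.6% ± 15.8 and 44.3% ± 3.82 in the event with means of 13.7 and 20 counts per library and at 1.62% ± 0.508 and 3.18% ± 0.726 in the other; neither passed.

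In the list of ESRP targets and exons of epithelial to mesenchymal transition, 14 short exon events were measured, 8 tested and 4 called, UTRN, YAP1 and UAP1 lower and EPB41L1 higher. The background over all tested exon events was 5.87%. This list and the other gene lists were written with earlier results of these samples known, so their counts are no independent evidence. The list of adhesion and junction genes had 6 measured and 2 tested, and that of chromatin and transcription genes 7 and 4. In both lists 0 were called by the limma-moderated model; 1 and 0 had an unadjusted p under 0.05, and limma on the log2 ratio at a pseudocount of 0.5 called none outside the 12. The list of cell division and DNA repair genes had 2 measured and 1 tested, KIF23.

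The tested exons with the largest differences that did not pass include, besides MYO9B, PTBP2 and DNM1L, those of KIF1B, ZDHHC16 and MANBAL. ZDHHC16 encodes a palmitoyltransferase. Its 48 nt exon stood at 60.4%, 84.9% and 78.4% in PC3E and 42.3%, 58.5% and 48.7% in GS689, and its adjusted p of 0.095 became 0.00392 without PC3E replicate 1 and 0.0295 without GS689 replicate 2 (0.00136 to 0.531 over all alternatives). The 42 nt exon of the kinesin KIF1B went from 0% to 100% within PC3E, where its 3 libraries had 2, 6 and 9 counts, and its adjusted p was 0.701. The 44 nt partly coding exon of MANBAL had 22 to 36 counts per library and stood at 26.7% ± 7.8 in PC3E and 9.1% ± 8.96 in GS689 (SD, n = 3; adjusted p = 0.202).

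**Figure D3:**
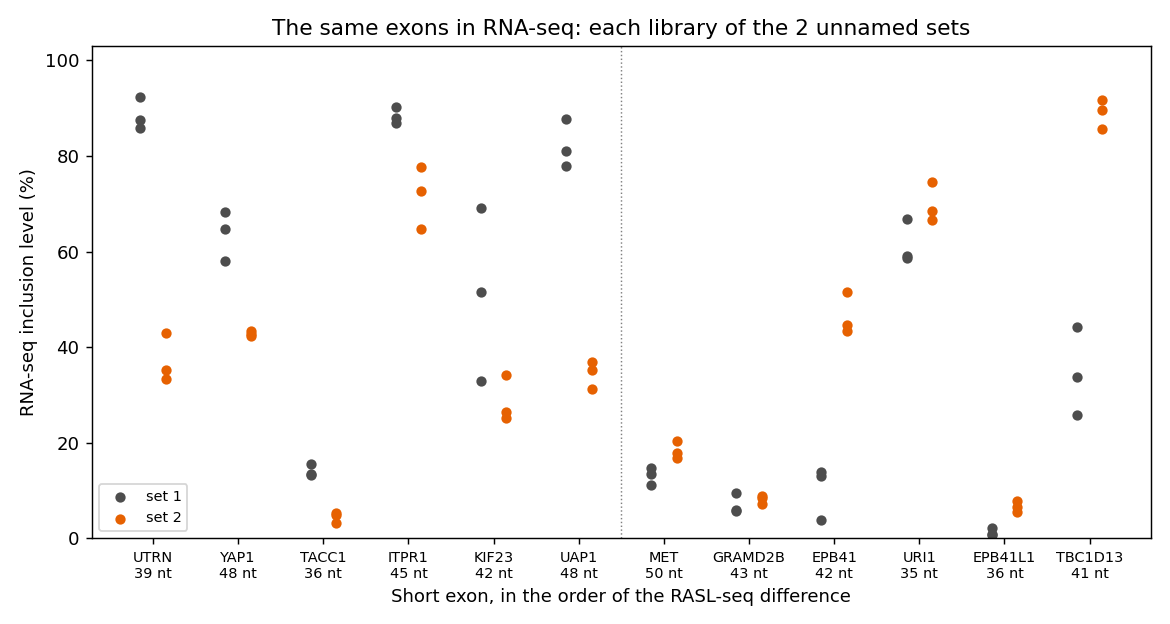
RNA-seq inclusion level (%) of the same 12 exons, with a point for each of the 3 libraries of set 1 (grey) and of set 2 (orange), which the file does not assign to lines. The sets overlap for KIF23, GRAMD2B and URI1 and do not overlap for the others. The share of all RNA-seq events whose sets do not overlap was not counted, so no background is given.

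RNA-seq gave these exons at levels that in part differed from RASL-seq. UTRN stood at 85.9% to 92.3% in the libraries of set 1 and 33.3% to 42.9% in those of set 2, and YAP1 at 58% to 68.3% and 42.4% to 43.3%. For TBC1D13, where RASL-seq had few counts, set 1 gave 25.9% to 44.3% and set 2 85.6% to 91.8%. In each of these 3 exons the RNA-seq sets did not overlap.

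For others the ranges differed. UAP1 stood at 78% to 87.7% in set 1 and 31.2% to 36.9% in set 2, while its lowest RASL-seq library was at 87%. EPB41 stood at 3.91% to 13.8% and 43.3% to 51.6%, while its highest RASL-seq library was at 13.5%. EPB41L1 was the reverse, at 0.625% to 2.26% and 5.48% to 7.75% in RNA-seq against 50.6% in the highest RASL-seq library. The levels of these 3 exons thus differed between the assays, while the sets and the lines each stayed apart. In 2 other RNA-seq events with other flanking splice sites the UAP1 exon stood at 83.1% or above in every library.

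ITPR1 stood at 86.9% to 90.2% in set 1 and 64.6% to 77.7% in set 2, TACC1 at 13.2% to 15.5% and 3.24% to 5.21%, and MET at 11.1% to 14.6% and 16.8% to 20.3%. KIF23 spread widely within set 1, at 32.9% to 69.2%, and stood at 25.1% to 34.2% in set 2. URI1 (58.6% to 66.7% and 66.5% to 74.6%) and GRAMD2B (5.78% to 9.5% and 7.17% to 8.9%) had overlapping sets. The YAP1 exon also entered 3 other RNA-seq events with other flanking splice sites. In the event with a downstream site at 102094353 it stood at 72.5% to 79.7% in set 1 and 58.3% to 66.1% in set 2, without overlap. In the remaining events it stood at 91.6% or above in every library and the sets overlapped.

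Over the 203 short exon events with at least 20 RNA-seq counts in every library and a RASL-seq event, the levels of the assays had a correlation across exons of 0.82; the points share the same libraries, and exons are not independent replicates. The median of RASL-seq minus RNA-seq was 0.297 points and the median size of the gap 8.19 points. The gap was over 20 points for 58 of the 203, with RASL-seq higher in 34 and lower in 24. No minimum RASL-seq depth was set for the 203, of which 121 were tested, so some gaps rest on few RASL-seq counts. Among tested exons, chosen after their values were seen, MARK2 (45 nt) had 15% in RASL-seq and 91.0% in RNA-seq, EXOC1 (45 nt), an exocyst subunit, 4.01% and 69.8%, and BCAS3 (45 nt) 68.3% and 4.13%. The RASL-seq inclusion count comes from the upstream junction alone, and its part in these gaps was not tested.

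**Figure D4:**
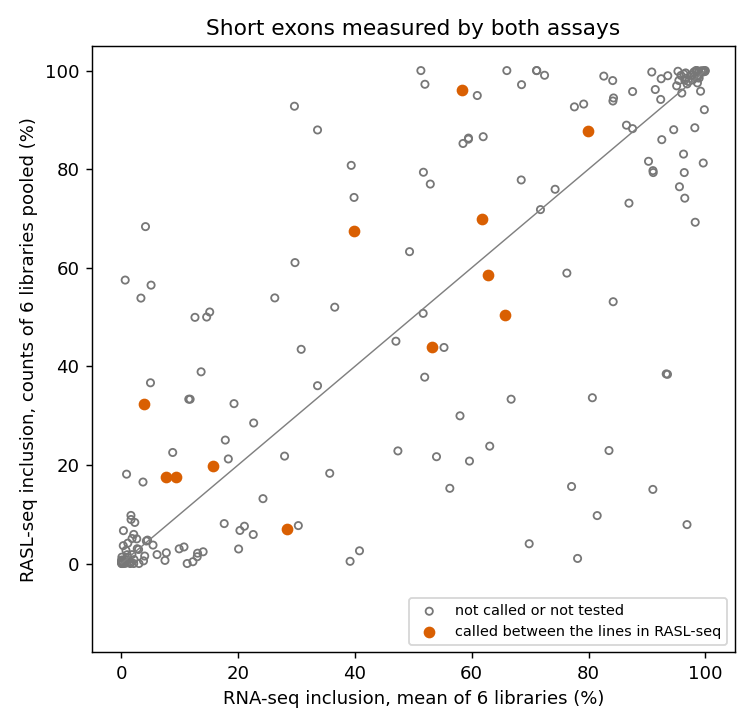
RASL-seq inclusion (%, counts of 6 libraries pooled) against RNA-seq inclusion (%, mean of 6 libraries) for the 203 short exon events measured by both assays; filled points are the 12 called between the lines. Points crowd at both ends of the line of equality, and 58 of the 203 lie more than 20 points from it.

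In RNA-seq 4441 of the 6054 short exon events had at least 20 counts in every library, in 3046 distinct exons; the other 1613 were left out. Short exons were less completely included than longer ones. Mean inclusion over the 6 libraries was between 10% and 90% for 576 of the 4441 (13%), against a background of 8.50% over all 90656 measured events. It was under 10% for a further 576 (13%), against a background of 7.19%, and over 90% for 3289 (74.1%). The events share exons and genes, and the shares were not tested.

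By length class the share with intermediate inclusion was 20.3% at 3 to 27 nt, 13% at 28 to 50 nt, 8.78% at 51 to 100 nt, 7.78% above 100 and up to 150 nt, 7.88% above 150 and below 500 nt, and 8.12% at 500 nt or more. Short exons thus stood between the microexons and all longer classes. Within the class the share was 13.6% at 28 to 33 nt, 13.9% at 34 to 39 nt, 12.2% at 40 to 45 nt and 12.7% at 46 to 50 nt. The intermediate events lay in 489 distinct exons of 434 named genes.

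**Figure D5:**
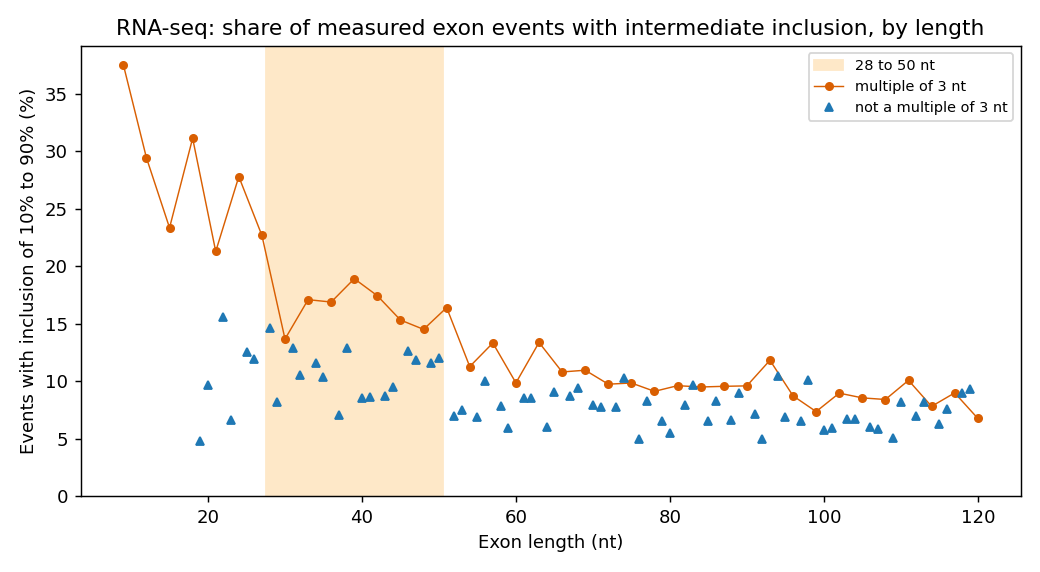
Share of measured RNA-seq exon events with inclusion of 10% to 90% (%) against exon length (nt) from 3 to 120 nt, for lengths with at least 20 measured events. In the shaded range of 28 to 50 nt lengths that are multiples of 3 (orange) lie between 13.7% and 18.9%, and other lengths (blue) between 7.09% and 14.6%.

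Short exons in frame more often had intermediate inclusion in RNA-seq, a difference that was not tested. Of 1825 events with a length that is a multiple of 3, 295 had intermediate inclusion (16.2%), against 281 of 2616 other events (10.7%). The highest share was at 39 nt, 45 of 238 events (18.9%), and the lowest at 37 nt, 10 of 141 (7.09%). Multiples of 3 made up 38.4% of short exon events above 90% inclusion, 51.2% of those with intermediate inclusion and 46.4% of those below 10%. Other length classes differed in the size of this gap. Multiples of 3 made up 44% of events above 90% inclusion and 75.6% of intermediate events at 3 to 27 nt. These shares were 40% and 47.9% at 51 to 100 nt, and 36.9% and 57.8% at 500 nt or more. The gap was small above 100 and up to 150 nt (40.2% and 41.7%). It was also small above 150 and below 500 nt (38.0% and 41.0%).

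Among short exons within coding sequence the contrast was wider. Multiples of 3 made up 38.7% of the events above 90%, 62.3% of the intermediate events and 78.1% of those below 10%. Over exons of all lengths, coding or not, the shares were 39.4%, 45.3% and 39.3%. Short exons in noncoding sequence had another pattern, with 23.6% multiples of 3 below 10% inclusion.

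Annotation also set the levels apart. Coding short exon events had a median inclusion of 99.4% (3367 events), partly coding ones of 95.7% (145) and noncoding ones of 36.2% (727). The 212 events whose exon is in a transcript annotated for nonsense-mediated decay and in none annotated as protein coding had a median of 7.76%, and 109 of them were below 10%. Where the annotation holds the skipping junction, 30.1% of 1533 short exon events had intermediate inclusion and 36.3% were below 10%, against 3.51% and 0.185% of the 2706 without it. Exons of all lengths split likewise. With the junction annotated 26.1% of 22663 events had intermediate inclusion and 6230 were below 10%, against 2.25% and 65 of 63814 without it.

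Sequence was described for the measured events matched to a gene, and intron length for all measured events. The median GC content of measured short exons was 46.2%, against 49.3% over all exons and 47.2% at 51 to 100 nt. The median intron was 2353 nt upstream and 2007 nt downstream, against 2558 and 2307 nt over all events. Short exons with intermediate inclusion had a median GC content of 47.7% and those above 90% of 45.9%, and the ending AG was present in 52.7% and 54.2%. Splice site sequences in the introns were not analysed here.

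The RNA-seq sets did not overlap and differed by at least 20 points in mean inclusion for 54 of the 4441 short exon events (1.22%), against a background of 0.480% over all measured events. Of the 54, 22 were higher in set 2 (background 0.188%) and 32 lower (background 0.292%). They lay in 49 distinct exons of 48 genes. Multiples of 3 made up 38 of the 54 (70.4%), and the share with sets apart was 2.08% among multiples of 3 and 0.612% among other lengths. The excess of multiples of 3 was shared with other exons: they made up 60.2% of all exon events with sets apart, 68.1% at 51 to 100 nt and 100% of the 26 events at 3 to 27 nt.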

How the data were processed

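Per the labels' protocols, cells were lysed in Trizol and sequencing libraries came from a TruSeq Stranded Total RNA kit; RASL-seq ran on a MiSeq and RNA-seq on a HiSeq. The submitters' processing notes name kallisto 0.43.0, STAR 2.5.2a and hg19 without a stated role. The authors deposited raw counts: a pair per RASL-seq cell, and 3 inclusion or skipping counts per RNA-seq cell with effective lengths. The first RASL-seq count was taken as inclusion (correlation with RNA-seq inclusion 0.87 over 1640 events; in 51 of 51 cases it equalled the skipping count of an event using its upstream junction). Empty cells were read as 0. RNA-seq inclusion was length-corrected. The RASL-seq table has 0 events on the minus strand.

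Events were named by matching exon and intron lengths to 1 gene of GENCODE release 29, for 5788 of 6060 short exon events. The 6 RASL-seq libraries were compared event by event in a logistic regression with quasi-binomial variance (F test, dispersions moderated with limma 3.58.1 in R 4.3.3 and held at 1 or above), with Benjamini-Hochberg adjustment over all 1124 events that had a mean of at least 10 counts, 1 in each library and 10 of the rarer form. On data simulated for this comparison (1124 events) the fit recovered 33.2% of events shifted by 1 log2 odds unit and 67.2% of those shifted by 2, and 3.81% of its calls were false. The simulation gave every event and library the same fixed spread, with no library apart as PC3E replicate 2 was. These shares need not hold for the real libraries. The SE is that of the difference of 2 means of 3 libraries.

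Named were all called short exons, the exons of UTRN, EPB41L1, YAP1 and KIF23, the 6 tested ones with the largest difference that were not called, and the 20 RNA-seq exons with non-overlapping sets and the largest difference plus 12 more in gene lists (1 of these RNA-seq exons is not reported here); any other member was picked with its values in view. The members, lists and tests were chosen with earlier results of these data known. Replicate numbers were not used to pair the libraries in the main fit. Unused per-sample columns numbered 0.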

Additional observations from a re-analysis of the deposited data

How the results depend on the processing

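The count of 12 called short exons in RASL-seq was 7 with limma on the log2 ratio at a pseudocount of 0.5 (12 where precision weights were used, and 8, of which 7 were among the 12, at a pseudocount of 5), 19 with the replicate block, 1 without a filter on low counts, and 4 with a minimum change of 20 points. Leaving out 1 library gave 10 to 19, the highest without PC3E replicate 2, and all 12 were among those 19 and among the 19 of the replicate block. Whether the replicate numbers pair the libraries was not settled. Deviations of same-numbered libraries correlated at 0.178, 0.0714 and 0.049, against -0.203 to 0.128 for other pairs across the lines. PC3E replicate 3 correlated more with GS689 replicate 2 (0.128) than with its own number. With the counts of each pair exchanged 12 events were called and all named differences changed sign by construction: TBC1D13 -70.7, UTRN 47.3, EPB41L1 -32.3, YAP1 26.5, TACC1 19.9, ITPR1 17.4, KIF23 17.0, URI1 -10.9, UAP1 10.5, EPB41 -9.67, GRAMD2B -8.49, MET -5.4, KIF1B -36.7, ZDHHC16 24.8, MYO9B -21.2, PTBP2 -20.7, DNM1L 17.9 and MANBAL 17.6. Of the other values of named exons, 203 kept direction and side of the threshold, 36 lost and 8 gained a call, and 0 reversed. UTRN lost its call under none of 15 alternatives. In RNA-seq the 576 intermediate short exons became 894 with bounds of 5% and 95%, and 580 to 608 with 1 library left out. The cause of these changes was not tested. The 54 with sets apart became 118 at a minimum of 10 points, and 59 to 68 with 1 library left out.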

Other observations

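Short exons whose RNA-seq inclusion separated the unnamed sets are given here library by library, without a test, since neither the labels nor the header tie these sets to a line. The largest gap was in CA12, a membrane carbonic anhydrase, whose 33 nt exon stood at 95.9%, 91.3% and 90.8% in set 1 and 1.75%, 2.32% and 3.59% in set 2. The exon was near-constitutive in all libraries of set 1 and a minor form in set 2. INSR encodes the insulin receptor, whose 36 nt exon tells its isoforms A and B apart; the exon stood at 44.1%, 83.7% and 47.3% in set 1 and 11.2%, 8.26% and 11.5% in set 2. The sequences of these exons and of the NUMB exon described below are shown as examples of lengths that preserve the frame. Other such exons, as that of MAGI1, had larger gaps than NUMB and are not shown. The letters are from GENCODE release 29 transcripts. Capitals mark the last 3 bases, and positions are on hg19.
CA12, 33 nt, minus strand, chr15:63620297-63620329: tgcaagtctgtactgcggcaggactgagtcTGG
INSR, 36 nt, minus strand, chr19:7150508-7150543: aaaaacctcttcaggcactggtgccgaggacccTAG
NUMB, 33 nt, minus strand, chr14:73783098-73783130: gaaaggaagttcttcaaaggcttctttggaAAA

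Adhesion and polarity genes were among those with sets apart. NUMB, an endocytic adaptor and Notch inhibitor, has a 33 nt exon that adds an insert to its phosphotyrosine-binding domain; it stood at 55.8%, 37.5% and 55.7% in set 1 and 26.9%, 15.6% and 22.3% in set 2. MAGI1, a scaffold of epithelial junctions, moved the other way, with a 36 nt exon at 12.9%, 17.2% and 17.1% in set 1 and 61.3%, 69% and 89.7% in set 2. For CD47, the ligand that inhibits phagocytosis, a 33 nt exon stood at 35.3%, 41.5% and 46.6% and at 65.4%, 80.1% and 70%. Sets that do not overlap were a condition for choosing the RNA-seq exons given here, so this is no result about them. BAIAP2, an adaptor of Rac and actin, had a 46 nt partly coding exon at 64.7%, 60.1% and 68.1% in set 1 and 18.3%, 24.8% and 17% in set 2. NF2 encodes merlin, the upstream regulator of the Hippo kinases. Its 45 nt partly coding exon stood at 96.4%, 94% and 97.1% in set 1 and 60.9%, 58% and 61.9% in set 2.

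Genes of cell division and the microtubules were also represented. PRC1, which bundles midzone microtubules, had a 42 nt exon at 41.6%, 51.6% and 30.7% in set 1 and 73.2%, 85% and 83.6% in set 2. CDC25C, a phosphatase that activates the mitotic kinase, had a frame-shifting 34 nt exon at 68.4%, 87% and 74.8% and at 58.3%, 39.5% and 49.4%. The PRC1 exon was thus higher and the CDC25C exon lower in set 2. CLASP1, which stabilises microtubule ends, had a 48 nt exon at 35.6%, 51.4% and 41.7% in set 1 and 74.1%, 75.2% and 53% in set 2. MYO18A, an unconventional myosin, had a 45 nt exon at 44.4%, 69.4% and 46.4% and at 25.2%, 31.2% and 30.6%.

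Signalling and traffic genes followed. The 48 nt exon of MAP2K7, a kinase upstream of JNK, stood at 44.3%, 42.3% and 48.6% in set 1 and 84.8%, 92.5% and 87.9% in set 2. The 39 nt exon of LRP8, a receptor for apolipoprotein E and reelin, stood at 47.7%, 46.6% and 47.9% and at 82.7%, 91.3% and 92.1%. Set 1 varied by under 7 points for each of them. The 42 nt exon of ARFGAP2, a regulator of Golgi coats, stood at 74.5%, 77.2% and 66.9% in set 1 and 31.9%, 45.1% and 26.6% in set 2. SMARCA1, a chromatin remodelling ATPase, had a 36 nt exon at 62.1%, 51.4% and 51.4% and at 20.9%, 22.3% and 24.6%.

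Of the remaining exons, those of ACSF2, SEPT6, MDM1, GPR137 and BRD8 were higher in set 2, with gaps of 58.0, 45.3, 39.8, 34.8 and 17.9 points. Those of SH3D21, RALGAPA1, CREM, DNM1L and OSBPL9 were lower in set 2, with gaps of -47.5, -37.0, -18.9, -18.2 and -15.6 points. In another measured event of the same 33 nt DNM1L exon the sets overlapped. Its mean inclusion there was 67.7% in set 1 and 70.6% in set 2. In MAP2K7 RASL-seq had under 10 counts per library and was not tested.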
